A study of Mus musculus with 39 samples.

Results

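The genes described here are regulators of chromatin and DNA methylation: enzymes and readers of DNA methylation, Polycomb group proteins, histone deacetylases, histone methylation enzymes with the heterochromatin protein gene Cbx5, nucleosome remodelers, high mobility group (HMG) proteins, and proteins of the nuclear envelope with the chromatin organiser Satb1. They were chosen by name, as a list of 55 gene symbols, with earlier results of these data known. The brightest probe set annotated with a gene's symbol and no other stood for that gene. Of the 55 genes, 51 were measured, among 18193 genes in all. Suv39h1, Hmga1, Hmgb1 and Hmgn2 had no such probe set and are not analysed here. The study sorted GFP-positive photoreceptors from mouse retina by flow cytometry and hybridised amplified RNA to 39 Affymetrix arrays. The mice called ko here came from crossing Nrl-ko mice, which lack the rod transcription factor Nrl, with wt-Gfp mice, and those called wt were the wt-Gfp mice. In both, GFP was driven by the Nrl promoter, so the sort took cells in which that promoter was active. Each genotype was sampled at embryonic day 16 (E16), postnatal days 2, 6 and 10 (P2, P6, P10) and 4 weeks, with 4 arrays a group except 3 for ko at E16. The labels do not say whether replicates came from separate animals, so the p-values measure the spread between arrays only.

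DNA methylation is laid down by Dnmt3a and Dnmt3b, is copied after replication by Dnmt1 with its partner Uhrf1, and is oxidised by the Tet enzymes. Polycomb complex 2, with Ezh1 or Ezh2 as its catalytic subunit, methylates histone H3 at silenced genes, and Polycomb complex 1 binds that mark through Cbx proteins. Mouse rods are known for an inverted nucleus, with heterochromatin at the centre and little Lbr or lamin A at the envelope, whereas cones keep a more conventional layout.

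Nrl, the deleted gene, averaged 5.80, 6.01, 6.21, 5.84 and 6.52 in ko from E16 to 4 weeks, against 9.56, 10.83, 11.64, 11.92 and 12.26 in wt (log2 signal). The array labelled ko 4 weeks replicate 2 went against its label. Its Nrl signal was 9.05, against 5.60 to 5.77 in the other 3 arrays of its group, and over all genes it correlated better with the mean of the wt E16 arrays (r = 0.976) than with the rest of its own group (r = 0.956). A better correlation with another group was not particular to it: it held for 13 of the 39 arrays, among them all 3 ko E16 arrays and wt P10 replicates 2, 3 and 4, with wt P10 replicate 3 at r = 0.918 with its own group and 0.973 with wt at 4 weeks. The array labelled ko 4 weeks replicate 2 also stood above the other 3 in 30 of the 51 members and below them in 7. Over all genes it stood above them in 26.6% and below them in 41.7%. A further 5 arrays had the lowest spread of signal over probe sets (SD 1.34 to 1.41): ko E16 replicate 3, ko P2 replicate 4, ko P6 replicate 4 and wt P10 replicates 1 and 2. The other arrays ran from 1.45 to 1.80 without a clear gap, so taking 5 is a choice. In that ko E16 array, 37 of the 51 members lay below both other arrays of the group and 9 above both. Of all genes, 36.1% lay below and 57% above. The median deviation was -1.10 for the members against 0.26 over all genes. Results are therefore given with all arrays and, where they rest on these, without the 6 arrays. That fit keeps only replicates 1 and 2 of ko E16 and only replicates 3 and 4 of wt P10. Its differences that involve these groups rest on few arrays. The mean of 6 rod genes at P10 ran from 7.98 to 8.09 in ko arrays, against 10.45 to 11.71 in wt arrays. That of 9 cone genes ran from 10.77 to 11.02 in ko arrays, against 7.67 to 8.90 in wt arrays.

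More members were called from E16 to P10 or to 4 weeks than between genotypes at any stage. The same held of all genes. A gene was called where its difference had a Benjamini-Hochberg adjusted p under 0.05 over all genes in limma. Between E16 and P10 in ko, 3 members rose and 5 fell, in a comparison where 7.35% of all genes were called, 2.97% as higher and 4.38% as lower. In wt, 1 rose and 20 fell, together 41.2% of the 51, where 23.5% of all genes were called, 9.2% as higher and 14.3% as lower. Leaving the 6 arrays out, the counts were 3 higher and 17 lower in ko, where 21.2% of all genes were called, and 4 higher and 13 lower in wt, where 12.3% were. The median difference of the members was -0.34 in ko and -0.24 in wt in that fit, against 0.07 and 0.06 over all genes. With all arrays, 5 members were called in the same direction in both genotypes, namely Uhrf1, Dnmt3b, Ezh2, Hmgb2 and Hmgn1, which is 62.5% of the 8 called in ko and 23.8% of the 21 called in wt. In the fit without the 6 arrays, 14 were shared. Between these fits the share of all genes called went from 7.35% to 21.2% in ko and from 23.5% to 12.3% in wt. The share of all genes called in the same direction in both genotypes is not given here. These overlaps therefore do not set the members apart from all genes. These are sorted cells in bulk, in which fewer cells of a type and less RNA per cell cannot be told apart. The map of group means shows the members' levels by genotype and stage.

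**Figure D1:**
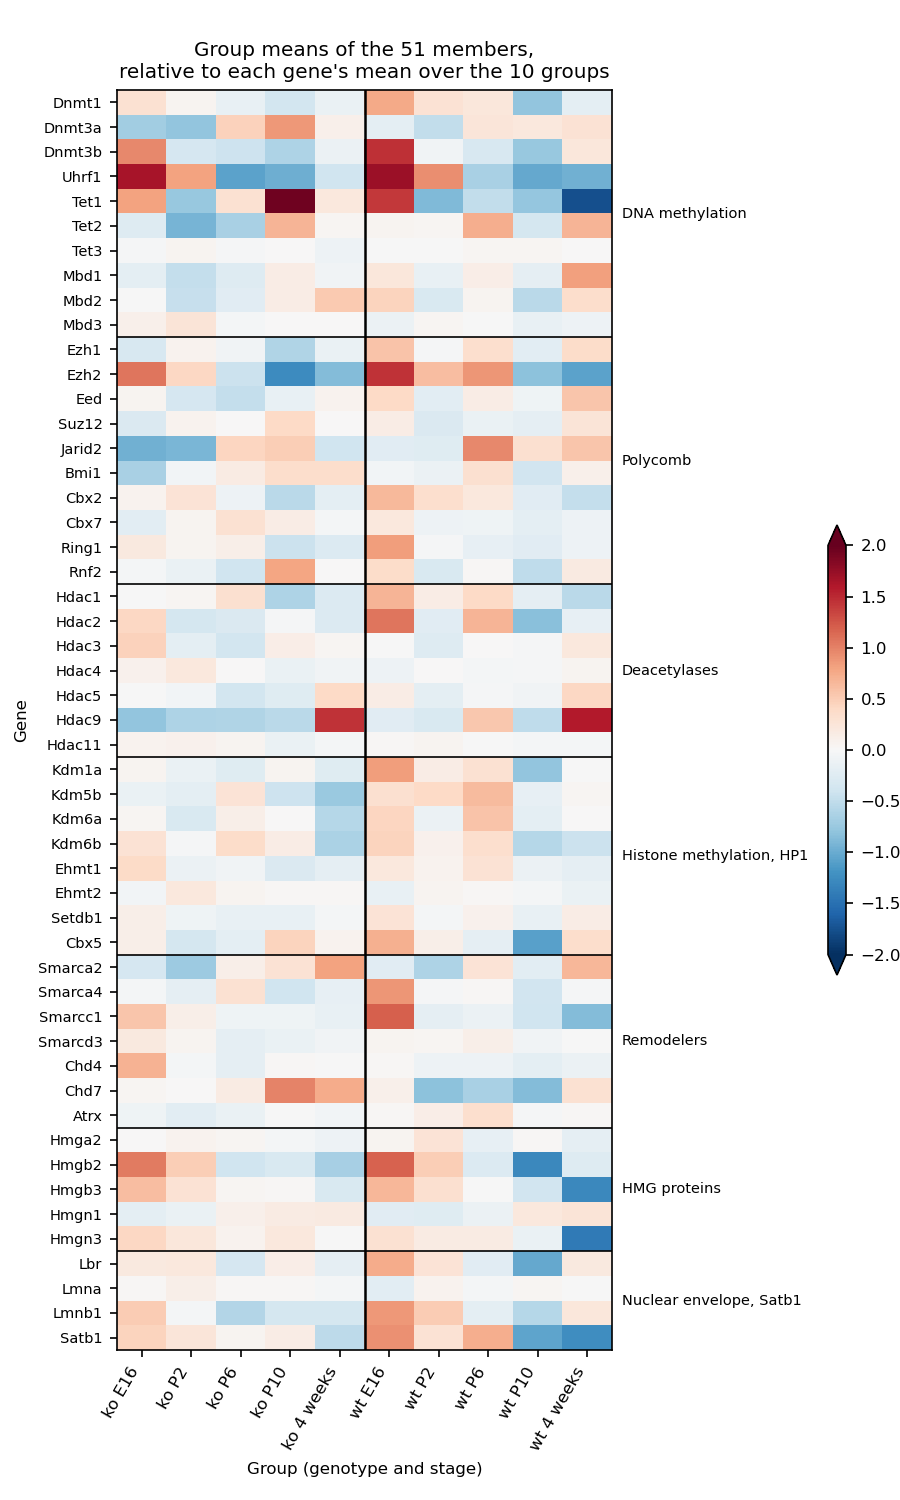
Group mean log2 signal of the 51 measured members (rows, by functional subset) in ko and wt at 5 stages (columns), each as a difference from the gene's own mean over the 10 groups; the colour scale is cut at 2 either way. Uhrf1, Ezh2, Dnmt3b and Hmgb2 are highest at E16 in both genotypes, Hdac9 is highest at 4 weeks in both, and Hmgn3 is low in wt at 4 weeks.

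From E16 to 4 weeks, 4 members were higher and 4 lower in ko, where 7.38% of all genes were called, 4.12% as higher and 3.25% as lower. In wt 3 were higher and 14 lower, where 18.3% of all genes were called, 6.66% as higher and 11.6% as lower. Without the array labelled ko 4 weeks replicate 2 the ko count was 4 higher and 7 lower, with 9.42% of all genes called, and without all 6 arrays it was 4 higher and 22 lower, with 22.5% of all genes called. In wt, without the 6 arrays, it was 6 higher and 17 lower, with 25.5% of all genes called. From P10 to 4 weeks, with all arrays, few members were called. In ko, 2 were higher and 1 lower, where 1.04% of all genes were called (0.72% higher, 0.319% lower). In wt, 5 were higher and 1 lower, where 5.34% were called (4.25% higher, 1.09% lower). In the fit without the 6 arrays, the ko count was 3 higher and 6 lower, or 17.6% of the members, with 3.27% of all genes called, and the wt count was 3 higher and 2 lower, with 3.17% called.

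Of the genes that maintain DNA methylation, Uhrf1 fell between E16 and P10 in both genotypes and Dnmt1 in wt. Uhrf1, which brings Dnmt1 to newly replicated DNA, was at 6.86, 6.57, 6.83 and 6.67 in ko arrays at P10, against 10.34, 9.63 and 8.07 at E16. In wt it was at 6.87, 6.89, 6.33 and 6.63 at P10, against 9.85, 9.21, 9.28 and 9.30 at E16. No P10 array reached the lowest E16 array in either genotype. The difference was -2.62 ± 0.49 (log2, SE) in ko with adjusted p = 0.000554, and -2.73 ± 0.46 in wt with adjusted p = 8.8e-05. Since the deposited calls mark Uhrf1 absent at P6 and P10 in both genotypes, these are falls of at least 6.13-fold in ko and at least 6.63-fold in wt. Most of the fall lay between P2 and P6: the means were 9.35, 8.51, 6.64 and 6.73 in ko and 9.41, 8.63, 7.06 and 6.68 in wt from E16 to P10. At 4 weeks the array labelled ko 4 weeks replicate 2 had 9.57, against 6.41, 6.58 and 6.65 in the others. A second Uhrf1 probe set moved by -0.22 in ko and 0.21 in wt over E16 to P10 and was not called.

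Dnmt1, the maintenance methyltransferase, was lower at P10 than at E16 in wt by -1.56 ± 0.30 (adjusted p = 0.000415), at 9.63, 9.60, 10.71 and 10.85 against 11.74, 11.73, 11.74 and 11.82. The 2 lowest of these P10 values came from the low-spread arrays. Without the 6 arrays the difference was -0.91 in ko (adjusted p = 0.00602) and -0.98 in wt (adjusted p = 0.00394). All 3 Dnmt1 probe sets fell in wt, when every probe set was fitted and adjusted together, as in each count of probe sets called below. With all arrays the ko difference was -0.67 and was not called (adjusted p = 0.264).

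Dnmt3b, a de novo methyltransferase of early development, was at 5.88, 5.90, 6.07 and 5.75 in ko at P10, against 8.04, 8.42 and 5.97 at E16. The wt arrays were at 5.78, 5.90, 5.69 and 5.69 at P10, against 8.43, 7.83, 7.82 and 7.82 at E16. In wt the stages did not overlap, while in ko the low-spread E16 array lay among the P10 values. The difference was -1.58 ± 0.37 in ko (adjusted p = 0.00514) and -2.21 ± 0.34 in wt (adjusted p = 2.85e-05), and -2.33 and -2.29 without the 6 arrays. Dnmt3b was called absent at P10 in both genotypes, so these too are lower bounds, and its other probe set moved by -0.07 in ko and 0.20 in wt.

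Dnmt3a, the de novo methyltransferase known to methylate DNA in maturing neurons, moved the other way. It was at 10.98, 11.21, 11.19 and 11.11 in ko arrays at P10, against 9.75, 9.56 and 9.33 at E16. It rose by 1.58 ± 0.21 in ko, or 2.98-fold (adjusted p = 3.74e-06), and by 1.47 without the 6 arrays. In wt it was at 9.86, 9.95, 11.10 and 10.89 at P10, against 9.99, 10.04, 10.10 and 10.10 at E16, a difference of 0.40 (adjusted p = 0.11). The 2 lower wt values were again those of the low-spread arrays, and without them the rise in wt was 0.94 (adjusted p = 1.08e-05). Dnmt3a was then lower at 4 weeks than at P10 in ko, by -0.78 ± 0.19 (adjusted p = 0.0318). Without the array labelled ko 4 weeks replicate 2 that difference was -0.68 (adjusted p = 0.125). Its ko minus wt difference was -0.51, -0.28, 0.23, 0.67 and -0.20 from E16 to 4 weeks, and the F test that these differ between stages gave adjusted p = 0.0446, a test that called 3.14% of all genes. The P10 difference of 0.67 was 0.13 without the 6 arrays (adjusted p = 0.664). Of 5 Dnmt3a probe sets, 4 had a positive difference over E16 to P10 in ko and 2 of these were called, while the other one was at -0.51. In wt 4 were positive and none of these was called, while the other one was called at -1.40.

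Tet1, which oxidises methylcytosine, had the widest range of group means of all members, 3.71. It was at 8.97, 9.91, 9.37 and 9.41 in ko arrays at P10, against 6.42, 5.65, 8.94 and 5.77 in wt arrays, a difference of 2.72 ± 0.71 (adjusted p = 0.0266). The third wt array reached nearly the level of the lowest ko array. It was 2.07 without the 6 arrays (adjusted p = 0.0652), and of 4 probe sets, 1 was called. In wt, Tet1 was at 6.72, 5.26, 5.05 and 5.81 at 4 weeks, against 9.30, 9.08, 8.71 and 8.44 at E16. That is a fall of 3.17 on the log2 scale (adjusted p = 0.00107) with no overlap between the stages. Tet2 and Tet3, the related oxidases, and the readers Mbd2 and Mbd3 were called in no comparison, with or without the 6 arrays. With every probe set fitted, 1 of 2 Tet2 probe sets was called as higher at 4 weeks than at P10 in wt. Their differences were 1.03 and 1.39.

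Mbd1, a reader that binds methylated DNA, was lower in ko at 4 weeks, at 8.57, 9.30, 8.97 and 9.04 against 10.05, 9.65, 9.95 and 9.81 in wt. The groups did not overlap, and the difference was -0.89 ± 0.24 (adjusted p = 0.0239). It was larger without the 6 arrays (adjusted p = 0.00024). Of its 5 probe sets, 3 had this sign and 1 was called.

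The promoter windows of Uhrf1, Ezh2, Dnmt1 and Hmgb2 are shown as examples that hold a match, since promoter motifs of cell cycle genes are well described. All were lower at P10 than at E16 in wt. The first 3 are all that held an E2F string among the 16 such members with a window. The display therefore does not represent the members that fell. Capitals mark, in the first 3, a match to either letter string of the E2F family motif (TTCCCGC or TTGGCGC) and, in Hmgb2, a match to the cell cycle homology region motif (TTTGAA); both strands were searched. The windows are RefSeq's, on build GRCm38.p6, 5′ to 3′ on the gene's strand, with 250 bases before the start and 50 after.
Uhrf1, chr17:56303087-56303386, plus strand: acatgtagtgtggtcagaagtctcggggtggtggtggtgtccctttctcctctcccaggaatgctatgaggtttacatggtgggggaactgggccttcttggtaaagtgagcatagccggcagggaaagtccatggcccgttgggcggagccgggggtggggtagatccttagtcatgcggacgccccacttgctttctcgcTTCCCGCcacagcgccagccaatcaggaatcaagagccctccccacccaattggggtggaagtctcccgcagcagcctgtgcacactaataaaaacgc
Ezh2, chr6:47594981-47595280, minus strand: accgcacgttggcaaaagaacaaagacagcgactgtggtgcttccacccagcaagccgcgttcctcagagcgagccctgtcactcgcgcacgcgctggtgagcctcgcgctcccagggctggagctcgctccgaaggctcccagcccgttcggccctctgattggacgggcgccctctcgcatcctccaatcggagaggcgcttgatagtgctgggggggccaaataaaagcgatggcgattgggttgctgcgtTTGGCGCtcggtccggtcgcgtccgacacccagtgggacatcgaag
Dnmt1, chr9:20952574-20952873, minus strand: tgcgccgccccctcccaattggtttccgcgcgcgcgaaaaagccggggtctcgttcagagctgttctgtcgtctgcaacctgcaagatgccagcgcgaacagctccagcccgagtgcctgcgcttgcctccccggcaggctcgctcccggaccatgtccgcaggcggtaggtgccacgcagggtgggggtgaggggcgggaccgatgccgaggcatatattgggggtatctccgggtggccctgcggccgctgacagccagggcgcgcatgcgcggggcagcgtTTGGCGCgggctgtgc
Hmgb2, chr8:57511593-57511892, plus strand: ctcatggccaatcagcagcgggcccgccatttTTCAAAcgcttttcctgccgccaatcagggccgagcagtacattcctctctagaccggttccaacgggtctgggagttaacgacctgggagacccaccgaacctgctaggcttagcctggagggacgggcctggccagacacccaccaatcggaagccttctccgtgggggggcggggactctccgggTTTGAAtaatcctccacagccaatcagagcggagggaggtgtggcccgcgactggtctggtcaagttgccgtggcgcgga
Windows were found for 42 of the 51 measured members. The E2F strings lay in a window of 6 of them (Atrx, Dnmt1, Ezh2, Hmga2, Suz12 and Uhrf1), and 7.79% of all genes have such a window. Of the 20 members that were lower at P10 than at E16 in wt, 16 had a window, and 3 of these held an E2F string, 6 held TTTGAA, 1 held TAATCC and none held TGCTGAC. The string TTTGAA lay in a window of 10 members, against 20.2% of all genes. The string TGCTGAC, from the element that Nrl binds, lay in windows of Atrx, Cbx7 and Rnf2 (5.28% of all genes), and TAATCC, from that of the photoreceptor factor Crx, in windows of Hdac9 and Hmgb2 (8.14% of all genes). Uhrf1 has 2 windows and Dnmt1 has 3, of which the only one with a match is printed. The Dnmt1 match begins at base 35 after the start, which is base 285 of its window. Windows at the other starts of these genes hold no E2F string, so the match is not one of every start. These matches describe the letters only.

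Among the Polycomb genes, Ezh2 was the member that fell most. It was at 7.50, 7.95, 7.40 and 7.84 in ko at P10, against 10.49, 10.51 and 8.98 at E16. The wt arrays were at 7.55, 7.38, 8.57 and 8.92 at P10, against 10.72, 10.17, 10.47 and 10.10 at E16. The stages did not overlap in either genotype. The difference was -2.32 ± 0.50 in ko (adjusted p = 0.00228) and -2.26 ± 0.46 in wt (adjusted p = 0.000862). At 4 weeks wt arrays had 8.48, 7.57, 7.85 and 7.56, a difference of -2.50 from E16, or 5.66-fold lower (adjusted p = 0.000115). The array labelled ko 4 weeks replicate 2 had 9.88, against 7.33, 7.47 and 7.55 in the other 3. Ezh2 averaged 8.50 in ko at P6 and 9.81 in wt at P6, a difference of -1.32 without overlap of arrays (adjusted p = 0.19).

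For the other members of Polycomb complex 2 the calls were fewer. Ezh1, the alternative catalytic subunit, and the core subunits Eed and Suz12 were called in no comparison with all arrays. Other probe sets differed when every probe set was fitted. Over E16 to P10 in wt, the other Eed probe set was called at 0.55. In that comparison 1 of 6 Suz12 probe sets was called as lower, in a range from -1.68 to 0.22. In ko 1 Suz12 probe set was called as higher at P10. Eed was lower in ko at P10 than at E16 without the 6 arrays, by -0.80 (adjusted p = 0.0197). Jarid2, an accessory subunit that helps recruit the complex, was at 10.45, 10.91, 10.50 and 10.69 in ko at P10, against 9.92, 9.79 and 7.87 at E16. It rose by 1.45 ± 0.39 (adjusted p = 0.0161), a difference that was 0.79 without ko E16 replicate 3 (adjusted p = 0.154). Without all 6 arrays it was 0.79 in ko (adjusted p = 0.0328) and 1.29 in wt (adjusted p = 0.000927). Of the subunits of Polycomb complex 1, Cbx2 and Ring1 were lower at P10 than at E16 in wt, and Cbx7, Bmi1 and Rnf2 were called in no comparison with all arrays. Cbx2 was at 6.72, 7.44, 7.15 and 7.21 in wt at 4 weeks, against 8.75, 7.53, 8.30 and 8.45 at E16, a fall of 1.13 on the log2 scale (adjusted p = 4.73e-05). Its second probe set was at 0.05. Ring1 was lower by -1.05 ± 0.22 at P10 in wt (adjusted p = 0.00111). In ko the differences over E16 to P10 were -0.61 for Cbx2 (adjusted p = 0.075) and -0.62 for Ring1 (adjusted p = 0.124). They were -0.64 (adjusted p = 0.0357) and -0.77 (adjusted p = 0.0379) without the 6 arrays.

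**Figure D2:**
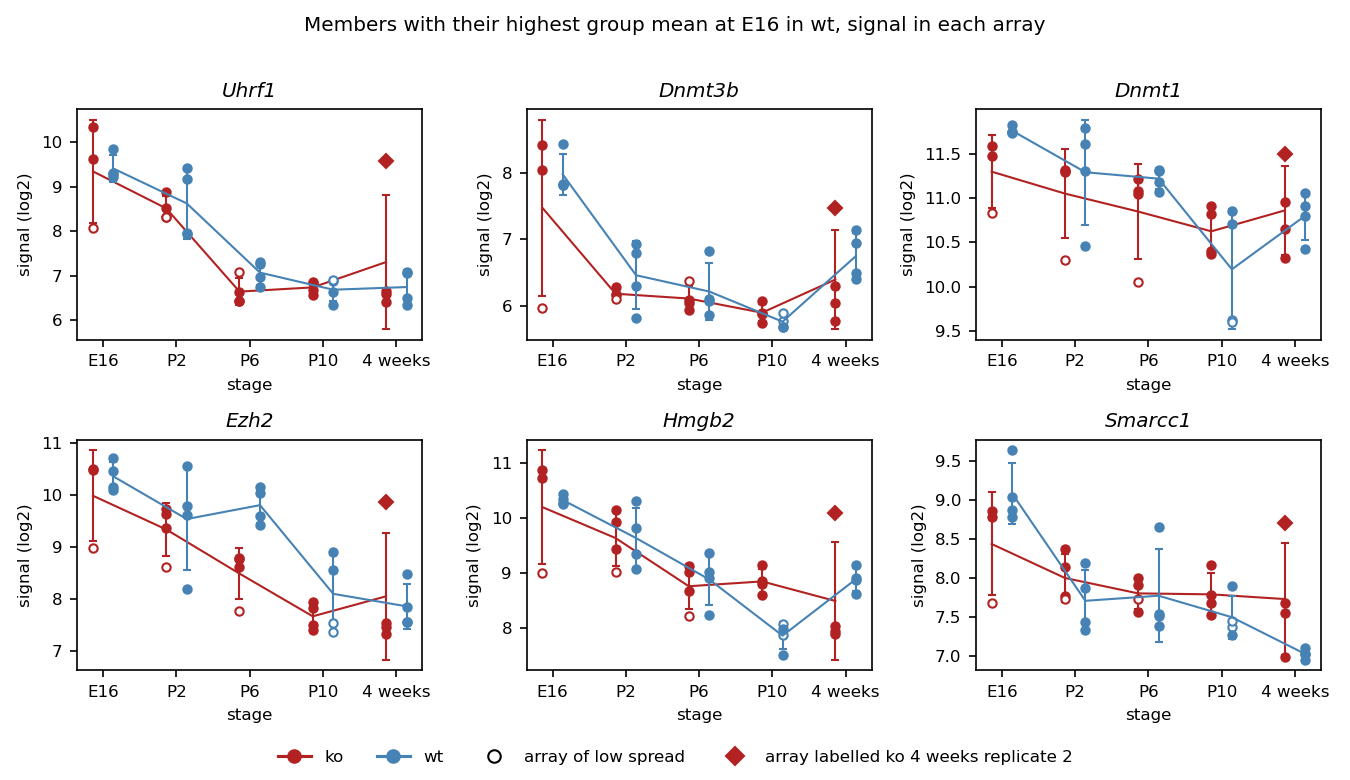
Log2 signal of 6 members in each array by stage, in ko (red, left of each stage) and wt (blue, right); lines join group means and bars are 1 SD. Open circles are the 5 arrays of lowest spread and the diamond is the array labelled ko 4 weeks replicate 2, which lies above the other ko arrays of its stage in all 6 panels.

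Hdac9, a class IIa deacetylase, was the member with the clearest late rise. It was at 8.23, 9.07, 9.46 and 9.40 in ko at 4 weeks, against 6.71, 7.64, 6.81 and 7.05 at P10. In wt it was at 9.26, 8.95, 9.32 and 9.18 at 4 weeks, against 6.59, 6.35, 8.10 and 7.31 at P10. Neither genotype had an overlap between these stages. The rise was 1.99 ± 0.30 in ko (adjusted p = 0.000104) and 2.09 ± 0.30 in wt (adjusted p = 1.37e-05), and 1.98 and 1.47 without the 6 arrays. Hdac9 was called absent at P10 in both genotypes, so the folds of 3.96 in ko and 4.25 in wt are lower bounds. Its rise over E16 to 4 weeks was 2.22 in ko (adjusted p = 1.22e-05) and 1.81 in wt (adjusted p = 2.63e-05). Its second probe set was flat in wt, at -0.02 over P10 to 4 weeks. At P6 it ran from 6.57 to 7.43 in ko arrays, against 7.63 to 8.61 in wt arrays, a difference of -1.14 ± 0.30 (adjusted p = 0.0459, with 1.54% of all genes called). Hdac5, of the same class, also rose from P10 to 4 weeks, by 0.64 in ko (adjusted p = 0.00626) and 0.49 in wt (adjusted p = 0.0188). In wt that was 0.26 without the 6 arrays (adjusted p = 0.587).

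The class I deacetylases Hdac1 and Hdac2, catalytic subunits of several corepressor complexes, were lower in wt at a later stage. Hdac2 was at 7.75, 7.14, 9.65 and 7.95 in wt at P10, against 10.14, 9.92, 10.11 and 9.97 at E16. The difference was -1.92 ± 0.55 (adjusted p = 0.0145), and -1.24 without the 6 arrays (adjusted p = 0.0808). In ko it was -0.43 with all arrays (adjusted p = 0.862) and -1.59 without the 6 (adjusted p = 0.0142). Hdac1 was at 9.48, 8.55, 8.43 and 8.39 in wt at 4 weeks, against 10.30, 9.50, 9.95 and 9.99 at E16. The highest 4-week array nearly reached the lowest E16 array, and the difference was -1.22 ± 0.37 (adjusted p = 0.0183). This Hdac1 difference lost its call in 4 of the fits that left out 1 array. The highest adjusted p was 0.0715, without wt E16 replicate 1. Of 3 Hdac2 probe sets, 2 were called as lower in wt and the other one was at 0.46. Hdac3, Hdac4 and Hdac11 were called in no comparison with all arrays.

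**Figure D3:**
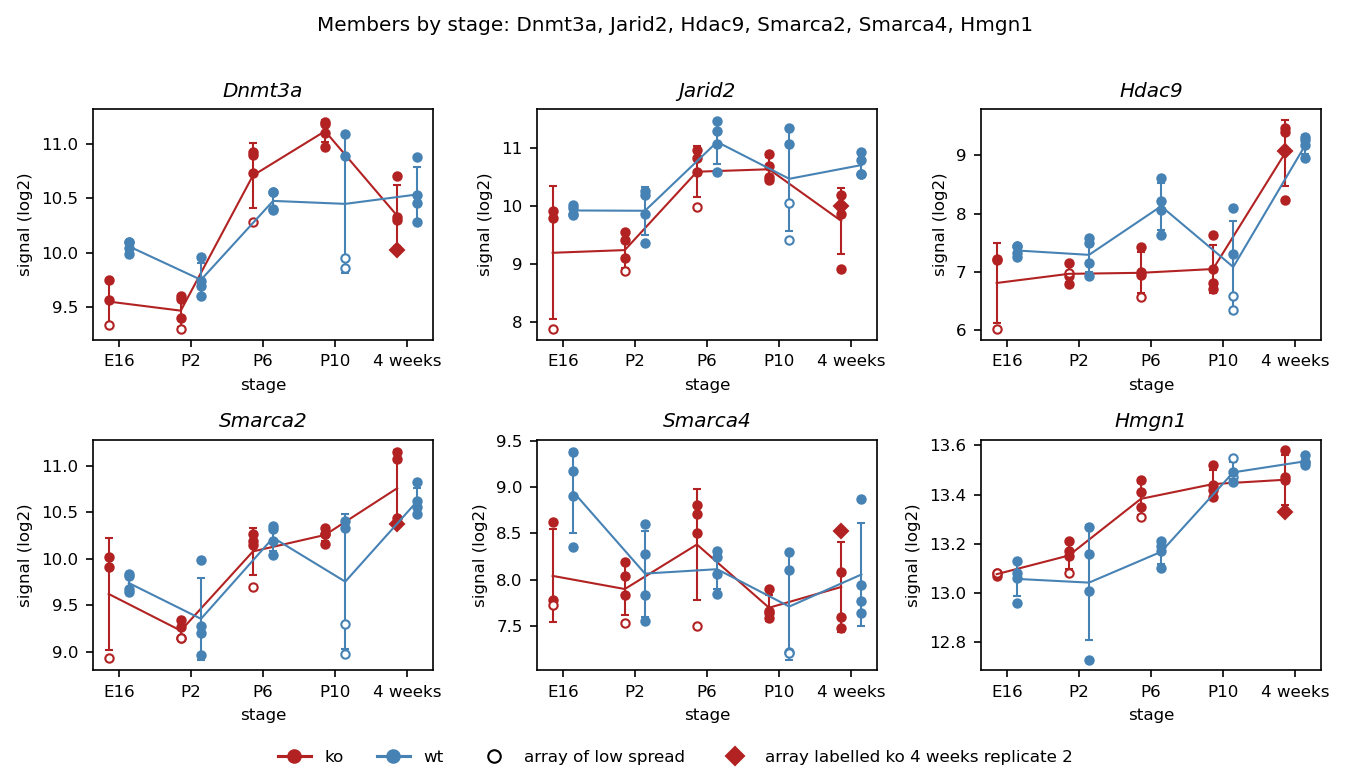
Log2 signal of 6 members in each array by stage, drawn as in the plot of the members that were highest at E16 in wt. Dnmt3a in ko rises after P2, Hdac9 rises at 4 weeks in both genotypes, and Hmgn1 moves little, with a mean of 13.46 at 4 weeks in ko against 13.08 at E16.

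Cbx5, which encodes the heterochromatin protein HP1 alpha, was lower in wt at P10 than at every other stage mean. It was at 11.05, 11.49, 11.13 and 11.37 in ko at P10, against 9.30, 8.72, 10.79 and 10.11 in wt. The groups did not overlap, and the difference was 1.53 ± 0.36, or 2.89-fold (adjusted p = 0.0117). It was 0.81 without the 6 arrays (adjusted p = 0.0158). In wt the P10 minus E16 difference was -1.79 ± 0.36 (adjusted p = 0.000716), and -1.07 without the 6 arrays (adjusted p = 0.000538). At 4 weeks wt arrays were at 11.30, 10.94, 11.31 and 11.15, 1.44 above P10 (adjusted p = 0.0124). Without the 6 arrays Cbx5 was not called in that comparison. The F test for a genotype difference that varies with stage gave adjusted p = 0.0501, and 0.0148 without the 6 arrays. Of 5 Cbx5 probe sets, 2 shared the sign of the genotype difference at P10 and 1 was called, with a range from -0.13 to 1.53. For the wt change over E16 to P10, 3 shared the sign, and 1 of the other 2 was called with the opposite sign.

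Of the histone demethylases, Kdm1a, which removes methyl groups from lysine 4 of histone H3, and Kdm6b, which removes the Polycomb mark, were lower in wt at P10. Kdm1a was at 8.26, 7.59, 10.08 and 8.88, against 10.34, 10.29, 10.41 and 10.27 at E16. Its difference was -1.62 ± 0.46 (adjusted p = 0.0132), and -0.85 without the 6 arrays (adjusted p = 0.104). Kdm6b was at 9.59, 9.03, 11.06 and 10.72, against 11.32, 10.90, 11.23 and 11.05. Its difference was -1.03 ± 0.36 (adjusted p = 0.0397), and -0.24 without the 6 arrays (adjusted p = 0.672). Both P10 differences thus rested on wt P10 replicates 1 and 2, and of 3 Kdm6b probe sets 1 had the negative sign. Over E16 to 4 weeks without the 6 arrays, Kdm1a was lower by -1.34 in ko (adjusted p = 0.00613) and -0.85 in wt (adjusted p = 0.0204), and Kdm6b by -1.63 in ko (adjusted p = 0.000213) and -0.89 in wt (adjusted p = 0.00493). The methyltransferase gene Ehmt1 was lower by -0.67 at P10 in ko (adjusted p = 0.0109), and Setdb1 by -0.43 at P10 in wt (adjusted p = 0.0035), where 2 of 3 Setdb1 probe sets had this sign. Without the 6 arrays Setdb1 was not called in wt, where Cbx5 alone of this subset was called as lower. Kdm5b, Kdm6a and Ehmt2 were called in no comparison with all arrays.

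The remodeler genes changed in opposite directions. Smarca4 (Brg1) and Smarca2 (Brm) are alternative ATPases of the BAF complex, and Smarcc1 is a core subunit known for the complex of stem and progenitor cells. Smarcc1 was at 7.03, 7.03, 6.96 and 7.11 in wt at 4 weeks, against 9.64, 9.04, 8.88 and 8.78 at E16. It fell by 2.05 on the log2 scale, or 4.15-fold (adjusted p = 2.07e-06), with no overlap. In ko it was at 6.99, 8.71, 7.68 and 7.56 at 4 weeks, against 8.78, 8.86 and 7.68 at E16, a difference of -0.70 (adjusted p = 0.233). Without the array labelled ko 4 weeks replicate 2 this was -1.03 (adjusted p = 0.0218), and without the 6 arrays -1.41 (adjusted p = 0.00143). All 4 Smarcc1 probe sets had the negative sign over E16 to P10 in both genotypes. Smarca4 was at 7.22, 7.21, 8.30 and 8.10 in wt at P10, against 9.38, 8.35, 9.18 and 8.91 at E16, a difference of -1.25 ± 0.31 (adjusted p = 0.00466), and -0.76 without the 6 arrays (adjusted p = 0.108). Smarca2 was at 10.44, 10.37, 11.07 and 11.15 in ko at 4 weeks, against 9.91, 10.02 and 8.93 at E16. The wt arrays were at 10.82, 10.48, 10.56 and 10.62 at 4 weeks, against 9.83, 9.81, 9.67 and 9.64 at E16. It rose by 1.14 ± 0.27 in ko (adjusted p = 0.00473) and 0.88 ± 0.25 in wt (adjusted p = 0.00907), and by 0.92 and 0.88 without the 6 arrays, with no overlap of stages in either genotype.

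Chd7, an ATP-dependent remodeler, was at 11.70, 11.96, 11.71 and 12.05 in ko at P10, against 9.09, 8.86, 11.42 and 10.57 in wt. The lowest values were those of wt P10 replicates 1 and 2. The difference was 1.87 ± 0.40 (adjusted p = 0.00484), and 0.86 without the 6 arrays (adjusted p = 0.0922). Its second probe set had the opposite sign, at -0.16. Atrx, a remodeler of heterochromatin, was lower in ko at P6, at 11.94, 12.10, 12.06 and 11.91 against 12.62, 12.44, 12.22 and 12.57 in wt. That difference was small but without overlap, -0.46 ± 0.11 (adjusted p = 0.0279), and -0.43 without the 6 arrays (adjusted p = 0.0482). Chd4 and Smarcd3 were called in no comparison with all arrays.

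Among the HMG genes, Hmgb2, which bends DNA and is abundant in dividing cells, fell in both genotypes. It was at 8.60, 9.14, 8.86 and 8.80 in ko at P10, against 10.87, 10.72 and 9.01 at E16. In wt it was at 8.08, 7.87, 7.99 and 7.52 at P10, against 10.44, 10.35, 10.25 and 10.27 at E16. The difference was -1.35 ± 0.41 in ko (adjusted p = 0.035) and -2.46 ± 0.38 in wt (adjusted p = 2.4e-05), and -1.95 and -2.57 without the 6 arrays. All 3 Hmgb2 probe sets had this sign. At P10 the ko and wt arrays did not overlap, and the difference of 0.99 was not called with all arrays (adjusted p = 0.183) but was 1.10 without the 6 (adjusted p = 0.0101). At 4 weeks the sign was the other way, at -0.40 (adjusted p = 0.962), and -0.93 without the 6 arrays (adjusted p = 0.0101). The array labelled ko 4 weeks replicate 2 was at 10.09, against 7.90, 8.04 and 7.95 in the other 3 and 8.63, 8.92, 9.14 and 8.87 in wt. The F test for a genotype difference that varies with stage gave Hmgb2 an adjusted p of 0.00435 without the 6 arrays.

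Hmgn3, a nucleosome-binding HMG protein, was the member with the clearest genotype difference. It was at 11.77, 11.80, 11.76 and 11.74 in ko at 4 weeks, against 10.81, 9.68, 10.01 and 10.97 in wt. The lowest ko array lay above the highest wt array. The difference was 1.40 ± 0.16, or 2.65-fold (adjusted p = 8.26e-08), and 1.39 without the 6 arrays (adjusted p = 2.06e-06). Both Hmgn3 probe sets were called, with differences of 1.40 and 1.79. At the 4 earlier stages the difference lay between -0.10 and 0.34 and was not called. The F test that it varied with stage gave adjusted p = 0.000125. In wt, the 4-week signal fell by 1.73 on the log2 scale relative to E16 (adjusted p = 5.25e-10) and fell by 1.28 relative to P10 (adjusted p = 9.03e-07). In ko the difference over E16 to 4 weeks was -0.42 (adjusted p = 0.166).

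Hmgb3, a paralog of Hmgb2, was at 8.06, 9.33, 8.01 and 7.75 in ko at 4 weeks, against 6.80, 7.45, 7.37 and 7.57 in wt. The groups did not overlap, and the difference was 0.99 ± 0.29 (adjusted p = 0.0384). Without the array labelled ko 4 weeks replicate 2, the highest of the 4, it was 0.64 (adjusted p = 0.283). In wt the 4-week values stood against 9.45, 9.43, 9.13 and 9.03 at E16, a difference of -1.96 (adjusted p = 3.88e-06). Hmgn1, the brightest member, was higher at P10 than at E16 by 0.37 ± 0.08 in ko (adjusted p = 0.00452) and 0.43 ± 0.08 in wt (adjusted p = 0.000233). All 4 of its probe sets had a positive difference in both genotypes, of which 3 were called in ko and 4 in wt. The probe sets used for Hmgn1, Hmgb2, Dnmt1 and Kdm6b are of a type that Affymetrix marks as possibly sharing sequence with other transcripts. So are those used for Suz12, Jarid2, Hdac2, Hdac3, Kdm1a, Kdm5b and Hmga2.

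**Figure D4:**
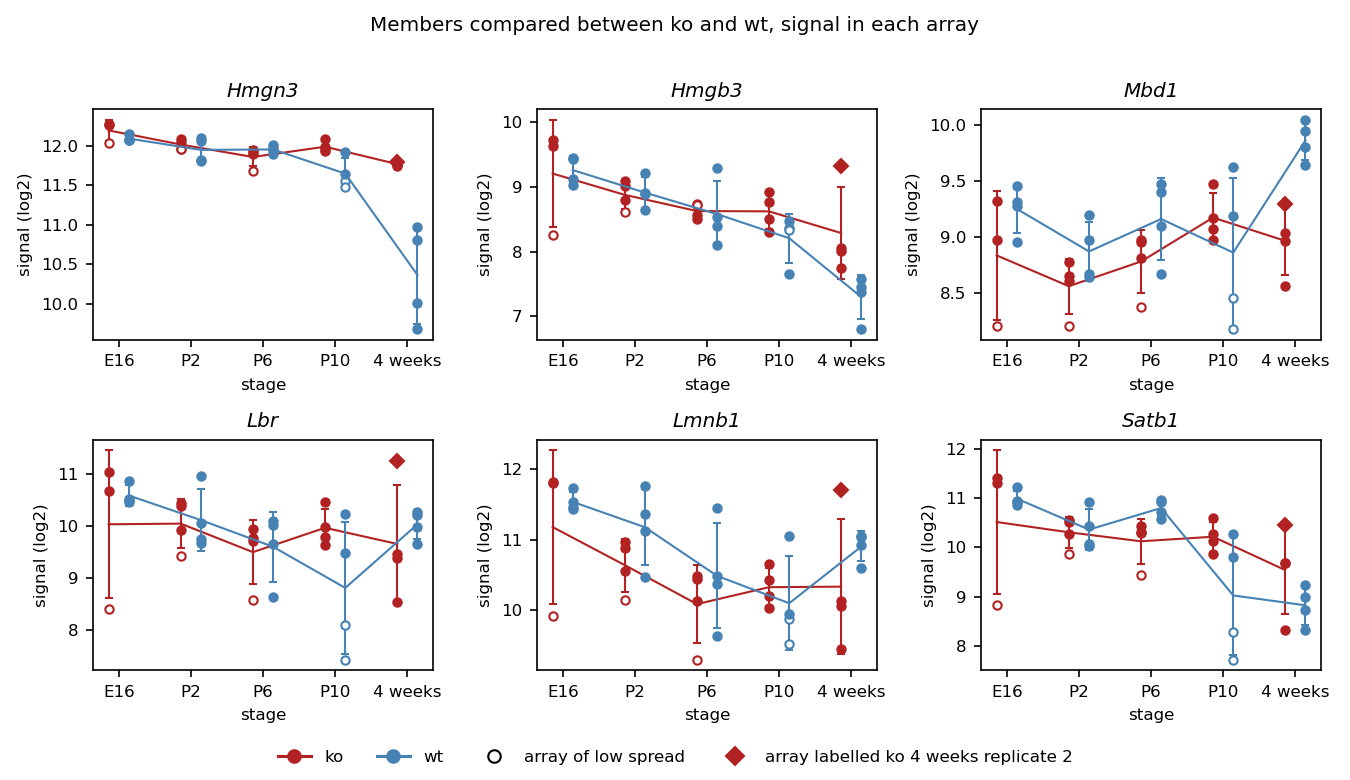
Log2 signal of Hmgn3, Hmgb3, Mbd1, Lbr, Lmnb1 and Satb1 in each array by stage, in ko (red, left of each stage) and wt (blue, right), with group means joined and bars of 1 SD. At 4 weeks the 4 ko arrays of Hmgn3 lie at 11.74 to 11.80, above the wt arrays at 9.68 to 10.97.

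Of the nuclear envelope genes and Satb1, which organises chromatin loops, 3 of 4 measured were lower in wt at P10 than at E16. In that comparison 14.3% of all genes were called as lower. Without the 6 arrays 2 of the 4 were lower, where 12.3% of all genes were called in either direction. Satb1 was at 9.24, 8.33, 9.00 and 8.72 in wt at 4 weeks, against 10.95, 11.22, 10.92 and 10.86 at E16, a fall of 2.17 on the log2 scale, or 4.49-fold (adjusted p = 0.000637). In ko the same difference was -0.97 (adjusted p = 0.351), and without the 6 arrays -2.12 (adjusted p = 7.03e-06). Lbr, the lamin B receptor that tethers heterochromatin to the envelope, was at 8.10, 7.43, 10.23 and 9.47 in wt at P10, against 10.87, 10.52, 10.45 and 10.49 at E16. The difference was -1.78 ± 0.53 (adjusted p = 0.0177), and -0.73 without the 6 arrays (adjusted p = 0.208). Lmnb1, encoding lamin B1, was at 9.87, 9.52, 11.06 and 9.95 in wt at P10, against 11.73, 11.53, 11.46 and 11.43 at E16, a difference of -1.44 ± 0.41 (adjusted p = 0.0142). Leaving the 6 arrays out, it was -1.48 in ko (adjusted p = 0.00259) and -1.03 in wt (adjusted p = 0.0473). At 4 weeks Lbr was at 8.53, 11.24, 9.38 and 9.46 in ko, against 10.27, 9.66, 10.21 and 9.97 in wt. Leaving out the array labelled ko 4 weeks replicate 2, which held the 11.24, all ko values lay below all wt values, but the difference of -0.90 was not called (adjusted p = 0.629). Lmna, encoding lamins A and C, was called absent in all 8 group columns of the deposited calls and its difference was called in no comparison.

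Between genotypes, few members were called at any stage. No member was called in limma at E16, where 1.13% of all genes were (0.308% higher, 0.819% lower), or at P2, where 0.346% were (0.126% higher, 0.22% lower). The counts without the 6 arrays were also 0, where 3.71% of all genes were called at E16 and 1.13% at P2. At an unadjusted p under 0.05 in limma there were 8 members at E16 and 2 at P2. That threshold is looser than the one behind the shares given here. The share of all genes that pass it is not given, so these 2 counts have nothing to be compared with. At P6, Hdac9 and Atrx were lower in ko, where 1.54% of all genes were called, 0.797% as higher and 0.748% as lower. Without the 6 arrays these 2 were called again, and Cbx7 (adjusted p = 0.0211) and Chd7 (adjusted p = 0.0295) were called as higher, with 4.16% of all genes called. At P10, Dnmt3a, Tet1, Cbx5 and Chd7 were higher in ko, where 2.81% of all genes were called, 1.95% as higher and 0.868% as lower; of the 4, Cbx5 alone was also called without the 6 arrays. In that fit Hmgb2 was called as higher too, and Kdm5b as lower by -0.98 (adjusted p = 0.0119), with 6.58% of all genes called. At 4 weeks, Hmgn3 and Hmgb3 were higher and Mbd1 lower in ko, where 4.73% of all genes were called, 2.11% as higher and 2.62% as lower. Without the 6 arrays, 1 member was higher and 6 were lower at 4 weeks, with 7.63% of all genes called. The 6 were Mbd1, Jarid2 (-1.05), Kdm5b (-0.90), Kdm6a (-0.76), Hmgb2 (-0.93) and Lmnb1 (-1.03). In the F test across stages, 2 members were called with all arrays, and 5 without the 6 arrays (Hmgn3, Hmgb2, Cbx5, Dnmt3a and Cbx7), where 7.13% of all genes were.

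**Figure D5:**
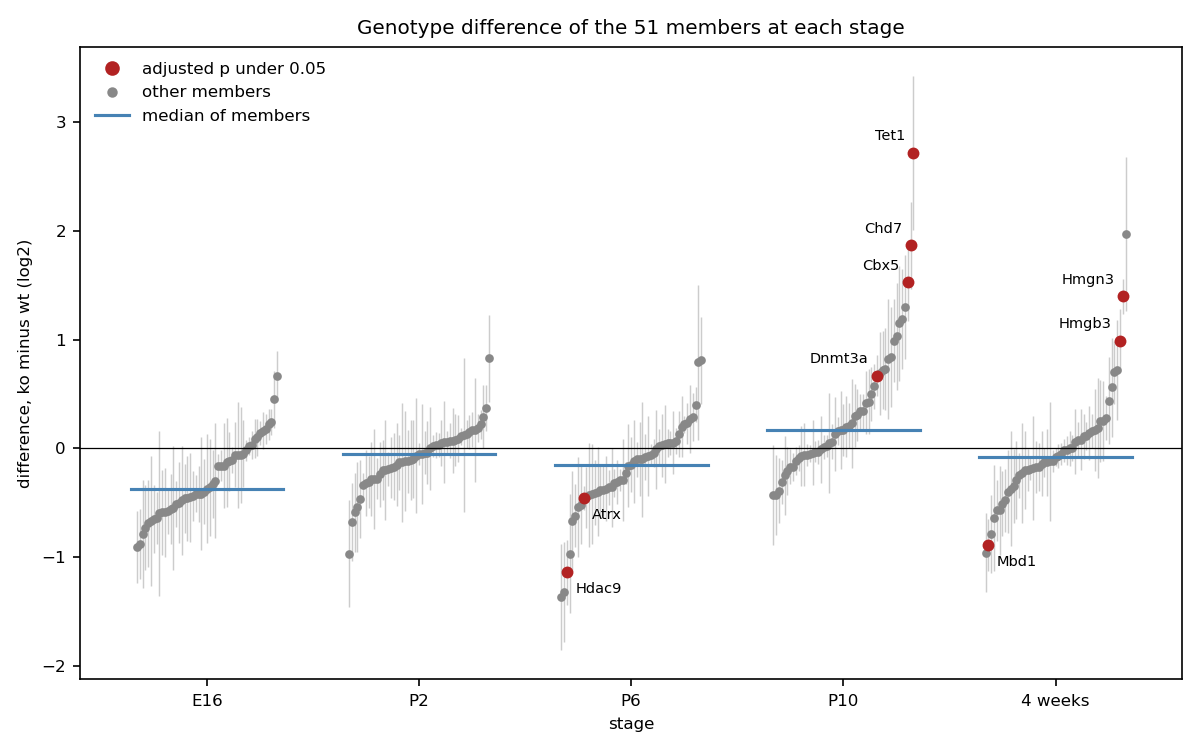
Difference in log2 signal, ko minus wt, for each of the 51 members at 5 stages, sorted within a stage; grey bars are 1 SE, red points have an adjusted p under 0.05 and are named, and the blue line is the median of the members. The median is -0.37 at E16 and 0.17 at P10, and was 0.08 and -0.08 at those stages without the 6 arrays.

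Genes of the cell cycle, of immature neurons and of progenitors and Mueller glia also moved between E16 and P10. The mean of 19 cell cycle genes ran from 7.38 to 7.49 in ko arrays at P10, against 8.62 to 9.05 at E16, and from 7.27 to 7.79 in wt arrays at P10, against 8.78 to 9.19 at E16. Over E16 to P10, 8 of the 19 were lower in ko and 10 in wt, and none was higher, where 4.38% and 14.3% of all genes were lower. Of 6 genes of immature neurons, 4 were lower in each genotype and none higher, and their mean was 8.08 in ko and 8.59 in wt at P10, against 9.96 in ko and 10.59 in wt at E16. Of 9 genes of progenitors and Mueller glia, 4 were lower and 1 higher in ko, and 4 were lower and 3 higher in wt. Their mean was 7.86 in ko and 7.98 in wt at P10, against 8.67 in ko and 8.94 in wt at E16. In the array labelled ko 4 weeks replicate 2 the cell cycle mean was 9.32, against 7.43 to 7.49 in the other 3. The immature neuron mean was 10.03 in that array, against 6.68 to 7.08 in the others, and the progenitor and Mueller glia mean 9.05, against 7.90 to 8.03. Markers of amacrine, horizontal and ganglion cells (18 genes) averaged 7.32 in ko and 8.33 in wt at E16, and 7.06 in ko and 7.72 in wt at P10. Their part in the members' changes was not tested.

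Another 114 chromatin genes outside the list, of the same classes, were measured. Over E16 to P10, 4 were higher and 3 lower in ko, where 7.35% of all genes were called, and 6 were higher and 35 lower in wt, where 23.5% were. Their median difference in wt was -0.51, beside -0.48 for the members and 0.09 for all genes. Without the 6 arrays these counts were 9 higher and 30 lower in ko and 6 higher and 13 lower in wt, with 21.2% and 12.3% of all genes called. Tox3, an HMG box gene, was lower at P10 by -2.67 in ko (adjusted p = 0.0132) and -2.52 in wt (adjusted p = 0.00641). Hells, a remodeler needed for DNA methylation, was lower at P10 by -0.92 in wt (adjusted p = 0.0227). Kdm4c, a demethylase, was higher at P10 by 1.72 in ko (adjusted p = 0.000371), and at 4 weeks by 1.89 in ko (adjusted p = 7.52e-05) and 1.71 in wt (adjusted p = 3.43e-05). Between genotypes at 4 weeks, Syne1, a linker of nucleus and cytoskeleton, was lower in ko by -1.05 (adjusted p = 1.75e-05), Kdm5c by -1.22 (adjusted p = 0.000526) and Gadd45a by -2.23 (adjusted p = 0.0265).

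Of the 51 members, 31 were called with all arrays in at least 1 of the 11 stage and genotype comparisons, or 60.8%, where 36.2% of all genes were. Leaving out the 6 arrays, 39 were, or 76.5%, where 44.6% of all genes were. Since the list was chosen with earlier results of these data known, these shares do not set the members apart from all genes. Of the 20 called in none with all arrays, 8 were called without the 6, namely Eed, Cbx7, Rnf2, Hdac3, Kdm5b, Kdm6a, Chd4 and Hmga2. The 20 include Eed, Suz12 and Ezh1, and the 5 members whose deposited calls were absent in all 8 columns for E16 to P10, which were Mbd3, Hdac4, Ehmt2, Smarcd3 and Lmna. The range of group means was 1.27 in the median member and 0.17 in the least variable. A further 29 members were called present in all 8 columns and 17 in some.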

How the data were processed

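RNA of sorted GFP-positive cells was amplified with a Nugene kit, per the labels, and hybridised to 39 arrays. The authors deposited 1 log2 value per probe set and array; RMA is named in the submitters' processing notes, and its version and settings are not given in the sources used here. Array means lay between 6.94 and 7.01. The deposited present or absent calls, 1 per probe set, genotype and stage from E16 to P10, were used to mark lower bounds; a column headed Ad was not used.

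Of 45101 probe sets, 64 controls, 932 with several genes and 9160 without a gene were left out, and the brightest of each gene was kept. limma 3.58.1 (R 4.3.3) was fitted to 10 group means over all 18193 genes (29 residual and 2.81 prior degrees of freedom), with Benjamini-Hochberg adjustment over all genes. It was tested on simulated data. All members may be named; every-array values are given for the 3 called members of each subset with the largest difference and for those called in the F test, and some others were added after their values were seen (Dnmt1, Mbd1, Smarca2, Atrx). The members and lists were chosen with earlier results of these data known. Precision is limited by how many arrays each group has. Alternatives are given at the end. Same-numbered replicates were not treated as pairs, since deviations of same-numbered arrays correlated above 0.1 in every pair for only 3 pairs of groups.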

Additional observations from a re-analysis of the deposited data

Results flagged for a closer look

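In 15 of 198 groups of 4 arrays checked, 1 array of a named member lay far from the rest by Dixon's test, which chance alone flags in about 1 group in 20. In the array labelled ko 4 weeks replicate 2, Uhrf1 was at 9.57 against 6.41 to 6.65 in the other 3, Ezh2 at 9.88 against 7.33 to 7.55, and Hmgb2 at 10.09 against 7.90 to 8.04. In ko P6 replicate 4, an array of low spread, Ezh2 was at 7.77, Hdac1 at 8.81, Cbx5 at 9.94, Satb1 at 9.44 and Hmgn3 at 11.68, each below the other 3 arrays. In ko P2 replicate 4, also of low spread, Cbx2 was at 7.52, below the others at 7.99 to 8.04. In wt E16 replicate 1, Uhrf1 was at 9.85, Dnmt3b at 8.43 and Lbr at 10.87, each above the others. Single arrays that stood high were wt 4 weeks replicate 1 for Hdac1 (9.48), wt P6 replicate 3 for Smarcc1 (8.66) and wt E16 replicate 2 for Hmgn3 (12.15). Their part in the results was not tested beyond leaving arrays out.

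The genotype difference varied between stages for Hmgn3 (adjusted p = 0.000125) and Dnmt3a (adjusted p = 0.0446) by limma's F test.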

How the results depend on the processing

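Leaving out 1 array at a time, the number of called members ranged from 0 to 3 for ko minus wt at E16, 0 to 2 at P6, 1 to 7 at P10 and 1 to 4 at 4 weeks, and was 0 throughout at P2. It ranged from 6 to 13 for P10 minus E16 in ko and 14 to 31 in wt, from 2 to 3 for 4 weeks minus P10 in ko and 2 to 12 in wt, from 4 to 17 for 4 weeks minus E16 in ko and 14 to 18 in wt, and from 1 to 6 for the F test. Without the 6 arrays the counts were 4 at P6, 7 at 4 weeks, 20 for P10 minus E16 in ko, 9 for 4 weeks minus P10 in ko, 26 for 4 weeks minus E16 in ko and 5 for the F test. With the replicate number as a block they were 1 at P6 and 1 for the F test, and no other count moved by over 1.5 times. With only the arrays compared, counts were 1 at P2, 0 at P6, 1 at P10, 11 for P10 minus E16 in wt and 3 in ko, 1 for 4 weeks minus P10 in wt and 1 for 4 weeks minus E16 in ko. The mean of all probe sets gave 1 at P6 and 2 at P10. Quantile normalization gave 1 at E16, where 1.08% of all genes were called. In ko it gave 16 for P10 minus E16 (10.1% of all genes), 5 for 4 weeks minus P10 (1.82%) and 16 for 4 weeks minus E16 (9.69%). Scaled arrays gave 0 at P6, where 3.05% of all genes were called, and trended robust variances 1 at P6 and 1 for the F test. Array weights, whose estimate did not converge, gave 13 at E16, 3 at P2, 32 at P10 and 19 at 4 weeks, 36 for P10 minus E16 in ko and 43 in wt, 12 for 4 weeks minus P10 in ko and 39 in wt, 35 for 4 weeks minus E16 in ko and 30 in wt, and 38 for the F test. The cause was not tested. For the fit without the 6 arrays, the shares of all genes called are given with the results above. No share is given here for array weights or for the other fits without one beside them. Those counts do not set the members apart from all genes. Among single arrays, leaving out wt P10 replicate 3 gave the highest counts for P10 (ko minus wt), for 4 weeks minus P10 in wt and for the F test, and leaving out ko E16 replicate 3 the highest for P10 minus E16 and 4 weeks minus E16 in ko. The lowest for 4 weeks minus E16 in ko came without ko E16 replicate 1, and the count of 3 at E16 without wt E16 replicate 2. None of the 22 named member results changed sign under these alternatives, and 13 stayed called under each of them. The 9 that lost their call at least once were Jarid2 in ko and Hdac1, Hdac2, Kdm1a, Kdm6b, Lbr, Lmnb1 and Smarca4 in wt between stages, and Chd7 between genotypes at P10.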
